A study of Mus musculus with 12 samples.

Results

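Some stretches of DNA in mouse proerythroblasts, the first morphologically distinct red cell precursors, were open to a transposase but lay outside every region that carried H3K4me1, H3K4me2, H3K4me3 or H3K27ac in fetal liver. Of 16271 open sites seen in both ATAC-seq libraries, 620 were of this kind, or 3.81% (95% Clopper-Pearson interval 3.52 to 4.12, which covers counting error only). They were chosen by rule. The peaks of all libraries of a group were merged, a merged stretch with a peak of every library was a consensus region, and an unmarked site is an ATAC consensus region that shares no base with a consensus region of any of the 4 marks. The choice used the ATAC and mark peak lists themselves, so the absence of the marks is a definition and not a result. The share rests on asking for a peak in both ATAC libraries. It was 12.5% of all peaks of replicate 2 (without replicate 1), 5.86% of all peaks of replicate 1 (without replicate 2), and 2.33% when both libraries gave the same number of peaks.

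The study profiled C57BL/6 mouse embryos at embryonic day 14.5. Proerythroblasts gave 2 ATAC-seq libraries. The histone marks were read by ChIP-seq of whole fetal liver, in 3 libraries for H3K4me1 and 2 each for H3K4me2, H3K4me3 and H3K27ac. An input library was not analysed here. No genotype change or treatment is given for any group. The labels do not say whether embryos were pooled or how proerythroblasts were isolated, and replicates may be technical. The antibody for H3K4me2 has different suppliers in different label fields, those for H3K4me3 and H3K27ac have different catalogue numbers, and which of them applies is not settled. The protocol text of the ATAC samples describes ChIP, so the ATAC procedure itself is not given. Titles of the mark libraries carry codes whose meaning is not stated. H3K4me2 replicate 1, H3K4me3 replicate 2 and H3K27ac replicate 1 share a code, as do H3K4me2 replicate 2 and H3K4me3 replicate 1, so replicate numbers do not follow the codes. The marks come from a mixed tissue and the open sites from a single cell type within it, so fewer cells with a mark and less of the mark per cell cannot be told apart. No marker gene could be read for either label, since the files name no genes.

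The 4 marks divide regulatory DNA into kinds. H3K4me3 sits at active promoters, H3K4me1 at enhancers and around promoters, H3K4me2 at both, and H3K27ac at promoters and enhancers that are in use. Open chromatin that carries none of them is a known class in mammalian cells, and sites bound by the insulator protein CTCF are often of that kind. Which proteins bind the sites described here was not measured.

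The peak lists held 18441 and 28980 ATAC peaks in replicates 1 and 2 and 14027 to 52387 peaks in the 9 mark lists. They give no read counts, so the sequencing depth of each library is unknown. An exact two-sided sign permutation of the differences in 2 libraries cannot go below a p of 0.5, the choice of sites used the same lists, and sites of 1 genome are not replicates. The comparisons below are therefore given as values in each library, without a p-value.

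Most unmarked sites were narrow and weak. The fold enrichment of an ATAC peak, the authors' value for signal over background, had at unmarked sites a lowest, median and highest value of 1.94, 4.96 and 28.3 in replicate 1, and of 1.89, 5.72 and 32.4 in replicate 2. The marked open sites, 15651 in all, had medians of 7.00 in replicate 1 and 8.07 in replicate 2. The difference between these medians was −2.04 in replicate 1 and −2.35 in replicate 2, a mean of −2.20 ± 0.219 (SD, n = 2), so it was larger than the spread between libraries. It was −1.26 when all peaks of replicate 2 were used without replicate 1. Unmarked sites had a median width of 326.5 bp, against 662 bp for marked sites, and 555 of the 620 (89.5%) were under 500 bp wide, against 76.6% of sites with H3K4me1 or H3K4me2 only and 30.3% of marked sites. Within each library the median peak at an unmarked site was 0.474 (replicate 1) and 0.478 (replicate 2) times as wide as at a marked site. In both libraries at once, 502 of the 620 (81.0%, 77.7 to 84.0) ranked in the lower 50% of all open sites by fold enrichment, against 74.8% (72.1 to 77.3) of sites with H3K4me1 or H3K4me2 only and 39.9% (39.1 to 40.6) of marked sites.

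Weakness and narrowness were shared with the most similar class. Open sites with H3K4me1 or H3K4me2 but neither H3K4me3 nor H3K27ac, 1109 in all, had median fold enrichments of 4.93 and 6.30 in replicates 1 and 2 and a median width of 398 bp. In replicate 1 the unmarked sites stood 0.03 above them, and in replicate 2 they stood 0.58 below, a mean of −0.28 ± 0.431 (SD, n = 2). The libraries thus disagreed on the sign of the difference in medians, and its mean was smaller than the spread between libraries. Many unmarked sites share the exact replicate 1 median, so the sign in that library says little. The share in the lower 50% in both libraries, given above, was 81.0% (77.7 to 84.0) at unmarked sites and 74.8% (72.1 to 77.3) at these sites. The intervals cover counting error only, and sites are not replicates. The median rank percentile by fold was 23.4 at unmarked sites and 22.3 at these sites in replicate 1. In replicate 2 it was 22.5 and 29.2, so by rank too the libraries disagreed on the direction. The peaks of unmarked sites were narrower in both libraries, at 0.895 and 0.819 times the width.

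**Figure D1:**
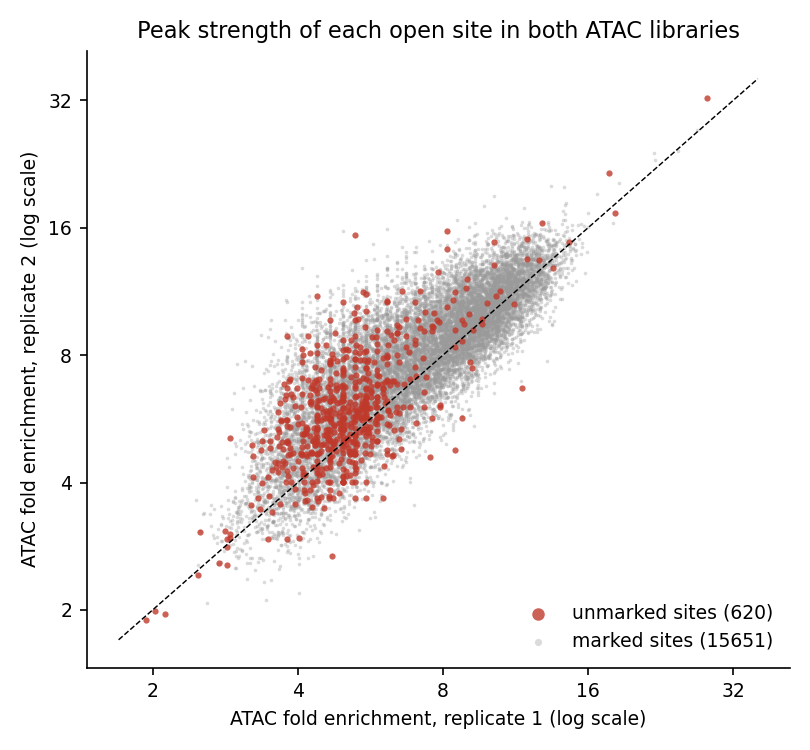
ATAC fold enrichment of every open site in replicate 1 (horizontal, log scale) and replicate 2 (vertical, log scale). The dashed line marks equal values. Red points are the 620 unmarked sites and grey points the 15651 marked sites. Most red points lie at the weak end, and 1 lies beyond all other sites, at 28.3 in replicate 1 and 32.4 in replicate 2.

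The summits of the 2 libraries lay close together at these sites, in part by construction. A site needs peaks of both libraries in 1 merged stretch, and the median peak at an unmarked site was 247 bp wide in replicate 1 and 294 bp in replicate 2. The summits of the strongest peak of each library lay a median of 24 bp apart at unmarked sites, against 29 bp at sites with H3K4me1 or H3K4me2 only and 19 bp at all marked sites. Both summits fell within 50 bp of each other at 72.3% of unmarked sites, 67.0% of sites with H3K4me1 or H3K4me2 only and 75.7% of marked sites. Fold enrichment in 1 library followed that in the other less closely than at marked sites. The Spearman correlation across sites was 0.552 for unmarked sites, 0.496 for sites with H3K4me1 or H3K4me2 only and 0.822 for marked sites. Unmarked sites had a narrower range of folds, with replicate 1 quartiles of 4.38 and 5.66 against 5.12 and 9.25 at marked sites. Whether that range bears on the correlation was not tested. Sites are not independent replicates. Replicate 2 had the higher fold at 456 of 620 unmarked sites (73.5%), against 81.8% of sites with H3K4me1 or H3K4me2 only and 69.2% of marked sites.

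The share of unmarked sites was lower among stronger peaks. When all open sites were ranked by fold in each library and cut into 10 equal parts, the unmarked share was highest in the second decile, at 9.28% (7.91 to 10.8) in replicate 1 and 10.2% (8.77 to 11.8) in replicate 2. It was 0.307% (0.0999 to 0.716) in the ninth decile of replicate 1 and 0.922% (0.517 to 1.52) in that of replicate 2. In the top decile it was 0.676% (0.338 to 1.21) in replicate 1 and 0.983% (0.563 to 1.59) in replicate 2, whose intervals overlap those of the ninth decile. Of the 1628 sites in the top decile, 0 had H3K4me1 or H3K4me2 only in replicate 1 and 15 (0.921%) in replicate 2.

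**Figure D2:**
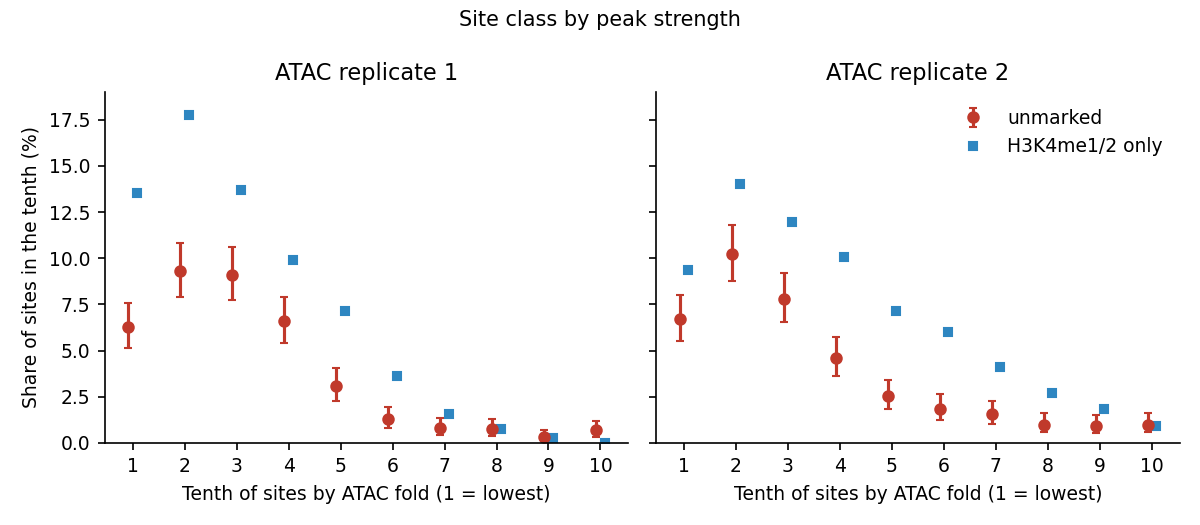
Share of open sites in each decile of ATAC fold enrichment (1 is the weakest) that were unmarked (red circles, with 95% Clopper-Pearson intervals) or had H3K4me1 or H3K4me2 only (blue squares, no interval drawn), in ATAC replicate 1 (left) and replicate 2 (right). Both shares peak in the second decile, and from the sixth decile upward the unmarked share is under 2% in both libraries.

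A few of the very strongest open sites were unmarked. The single strongest of all 16271 was unmarked, and so were 3 of the 10 strongest by mean fold of the 2 libraries. Only 2 more were found between rank 10 and rank 100, and the 5 of the 100 strongest are near the 3.81% of all open sites. None of the 100 strongest had H3K4me1 or H3K4me2 only. The first was chr3:5860528-5860870 (mm9, as are all positions here), 343 bp wide, with fold enrichments of 28.3 in replicate 1 and 32.4 in replicate 2. It lay 55.3 kb from the nearest mark region and 284 kb from the nearest other open site. The next, chr11:108872882-108873442, had 17.7 and 21.6 in replicates 1 and 2, ranked 6 among all open sites and lay 88.7 kb from a mark region. The third, chr4:70039087-70039368, had 18.2 and 17.3 in replicates 1 and 2 and a width of 282 bp. Its mean, 17.8, ranked 9 among all open sites. No list of repeats or artefact-prone sequence was applied, so whether any site named here lies in such sequence was not tested.

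The other 7 of the 10 strongest unmarked sites were closer to the bulk of strong open sites. The site chr17:36368115-36368619 had fold enrichments of 14.6 in replicate 1 and 14.8 in replicate 2, and chr6:3151397-3151653 had 12.8 and 16.4. Values of 12.0 and 15.1 were found at chr9:24346393-24346679, and of 13.5 and 12.9 at chr12:72059583-72060132. These 4 sites ranked between 45 and 284 among all open sites by mean fold. The site chr5:147072483-147072982, with 12.6 and 13.4, lay 0.244 kb from an H3K27ac region, the closest of the 10 to a mark. Last came chr13:3372229-3372909 with 12.0 and 13.5, and chr2:5300241-5300508 with 10.2 and 14.8. None of the 10 met a peak of any of the 9 mark lists, and 9 of the 10 lay more than 5 kb from the nearest mark region.

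The 5 widest unmarked sites were weak among all open sites. Their mean folds of 2.66 to 5.83 ranked from 16264 to 11699 of 16271. Those of chrY:2876243-2877353 (5.83) and chr11:109025148-109026209 (5.50) lay above 5.34, the mean of the members' medians in the 2 libraries. The widest, chr17:39980036-39983297, was 3262 bp wide with fold enrichments of only 2.74 in replicate 1 and 2.58 in replicate 2, while its −log10 q was 42.0 and 42.2. Then came chrY:2781323-2782541 (3.80 and 2.94 in replicates 1 and 2), chr2:77798465-77799668 (3.37 and 3.99), chrY:2876243-2877353 (6.18 and 5.47) and chr11:109025148-109026209 (4.29 and 6.71). The widest lay 917 kb from any mark region, yet 1.65 kb from another open site.

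For about 3 in 4 members the absence of marks held in every list, not just in the consensus. Of the 620, 467 (75.3%, 71.7 to 78.7) met no peak of any of the 9 mark lists. The other 153 (24.7%, 21.3 to 28.3) met a peak in some libraries of a mark but not in all of them in 1 merged stretch. H3K4me1 accounted for most of these peaks, on 92, 14 and 46 members in replicates 1, 2 and 3, and H3K4me2 lay on 60 and 19 members in replicates 1 and 2. H3K4me1 alone was met by 72 members, H3K4me2 alone by 36, and both by 40. H3K27ac met 4 members in replicate 1 and 1 in replicate 2. H3K4me3 met 1 member in replicate 1 and 0 of 620 in replicate 2, which allows a share of up to 0.593% (upper end of the exact interval). The libraries of a mark disagreed, and H3K4me1 replicate 1, with the most peaks of the 9 lists (52387), also had the most members with a peak. Without H3K4me2 replicate 2 the rule gave 560 unmarked sites, and the share of them with a mark peak was 16.3%.

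The mark peaks left at members had low fold enrichments. The rule drew on these lists and removed sites where the peaks of a mark recur in all its libraries, so the values describe what was left. Their median fold enrichment was 2.32, 2.39 and 2.20 in H3K4me1 replicates 1, 2 and 3, against 3.14, 2.71 and 2.79 for the peaks of the same libraries at marked open sites. In the H3K4me2 lists it was 2.41 and 2.31 in replicates 1 and 2, against 6.75 and 5.45 at marked sites. The 153 members with such a peak had median ATAC folds of 4.96 in replicate 1 and 5.84 in replicate 2, and the 467 without had 4.96 and 5.70. The medians were equal in replicate 1, where many members share that exact value, and in replicate 2 the members with a mark peak had the higher one.

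Few members owed their place to a narrow miss. The 3 nearest to a mark region were chr3:121587895-121588130, 1 bp from H3K4me2, chr11:4023964-4024265, 2 bp from H3K4me1, and chr12:110781103-110781446, 41 bp from H3K4me3. Just outside the rule, chr9:110612068-110612575 shared 4 bp with a mark region, chr2:98503902-98504198 shared 29 bp and chr1:63227659-63227936 shared 30 bp. Only 14 members lay within 500 bp of a mark region, and only 7 marked sites had under 50 bp of overlap.

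Unmarked sites typically lay several kb away from marked chromatin, most often from H3K4me2 or H3K4me1. The distance to the nearest region of any mark had a median of 12.3 kb and quartiles of 5.27 and 32.1 kb. That nearest region carried H3K4me2 for 306 members, H3K4me1 for 258, H3K27ac for 32 and H3K4me3 for 24. The marks had 35821, 30213, 18238 and 13600 consensus regions in the same order. By distance, 39 members lay under 1 kb away, 231 at 1 to 10 kb, 289 at 10 to 100 kb and 61 at 100 kb or more. Median fold hardly varied among these 4 groups, at 4.96 in replicate 1 in each and at 5.62, 5.78, 5.71 and 5.69 in replicate 2. Many members share the exact replicate 1 value of 4.96, so equal medians in that library say little. Median width was 308, 319, 330 and 410 bp from the nearest to the farthest group.

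Mark cover around unmarked sites was lower at 1 and 2 kb from the summit than from 10 kb on. At the summit itself H3K4me1 peaks of single libraries covered 5.91% ± 4.77 (SD, n = 3) of sites, from 1.77% to 11.1%, and H3K4me2 peaks 3.06% ± 3.42 (SD, n = 2). The H3K4me1 mean there was above that at 1 kb, but the ranges over libraries overlap. H3K4me1 peaks covered 1.61% ± 0.794 (SD, n = 3) of positions 1 kb from the summit, 7.37% ± 1.39 at 10 kb and 9.41% ± 1.43 at 20 kb. H3K27ac peaks covered 0.484% ± 0.342 at 1 kb, 4.07% ± 0.399 at 10 kb and 4.60% ± 0.342 at 50 kb (SD, n = 2). Around sites with H3K4me1 or H3K4me2 only, H3K4me1 cover was 27.4% ± 7.10 at 1 kb, 12.1% ± 2.60 at 10 kb and 13.0% ± 2.56 at 20 kb. H3K4me3 cover at 10 kb was 3.59% ± 0.855 around unmarked sites and 3.76% ± 0.414 around sites with H3K4me1 or H3K4me2 only (SD, n = 2), which differed by less than the spread between libraries. At 100 kb H3K27ac covered 3.55% ± 0.684 around unmarked sites and 5.14% ± 0.829 around the others. The rule keeps consensus regions off the sites themselves, so the low values close to the summit follow in part from it.

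**Figure D3:**
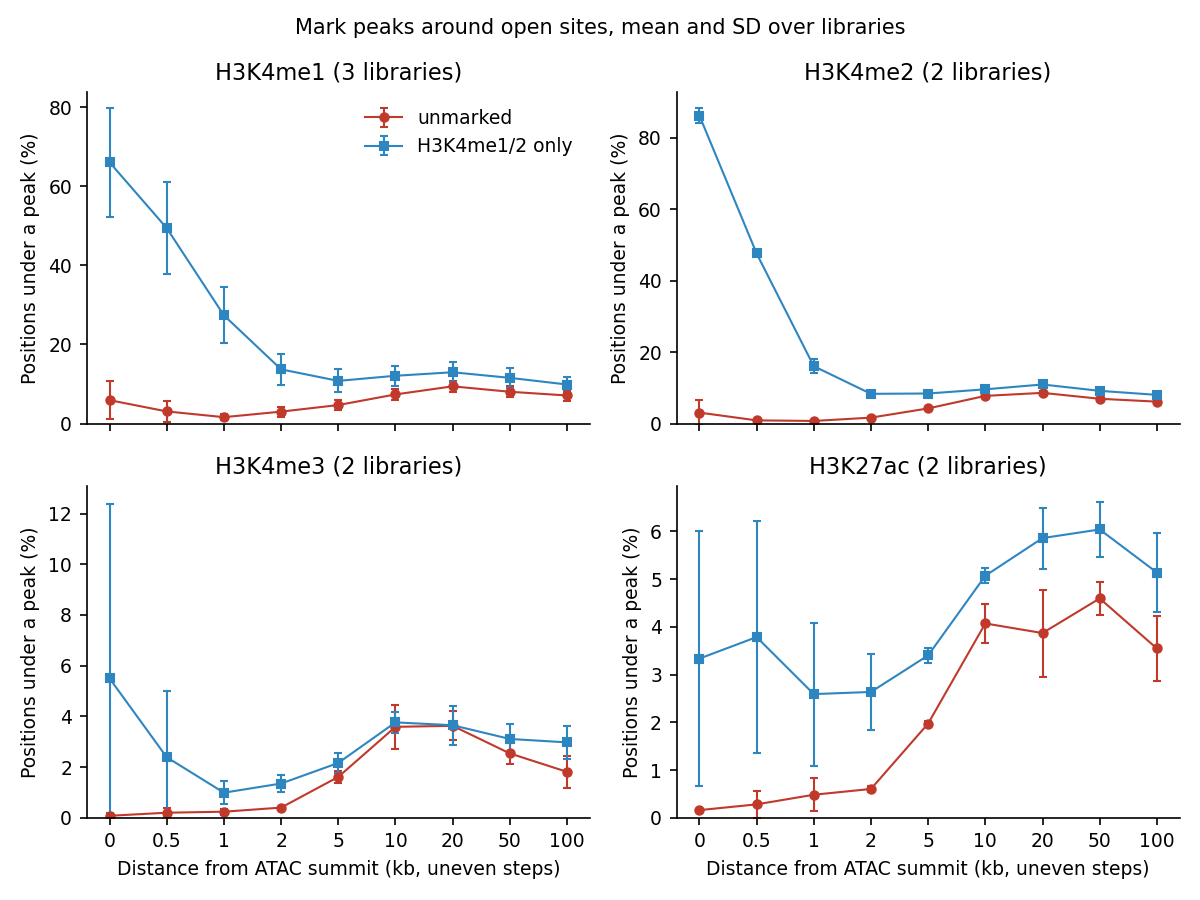
Share of positions under a peak of each mark (vertical, percent, a scale for each panel) at distances of 0 to 100 kb from the ATAC summit (horizontal, uneven steps), both sides averaged. Points are means and bars SDs over the libraries of the mark, for unmarked sites (red) and sites with H3K4me1 or H3K4me2 only (blue). Red values of all 4 marks are lower at 1 kb than at 10 kb, and the red and blue H3K4me3 values overlap at 10 and 20 kb.

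Unmarked sites were spaced more widely than marked sites. Their nearest other open site lay a median of 21.3 kb away (quartiles 9.11 and 56.9), against 13.7 kb (4.04 and 38.3) for marked sites, a ratio of 1.55. An open neighbour within 5 kb was found for 11.5% of unmarked sites (9.05 to 14.2) and 28.4% of marked sites (27.7 to 29.1). The ratio was 1.20 with equal numbers of ATAC peaks per library, and its interval (0.984 to 1.51) then included 1. It was 2.45 without ATAC replicate 1 and 2.77 without replicate 2. Sites with H3K4me1 or H3K4me2 only had a median distance of 22.4 kb, with a neighbour within 5 kb for 11.4% (9.55 to 13.4). The nearest H3K4me3 region, which neither class overlaps, was a median of 27.6 kb from unmarked sites and 24.9 kb from sites with H3K4me1 or H3K4me2 only. The ratio of 1.11 had an interval of 0.976 to 1.27 that includes 1, set by the order statistics of the unmarked sites with the other median held fixed. That call depended on the processing. The ratio was above 1 in all 21 alternatives, from 1.04 to 1.39, and in 11 of them the interval lay above 1, among them 1.20 (1.15 to 1.26) without ATAC replicate 1 and 1.39 (1.26 to 1.54) without replicate 2. The nearest H3K27ac region was a median of 31.6 kb from unmarked sites and 25.4 kb from sites with H3K4me1 or H3K4me2 only.

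**Figure D4:**
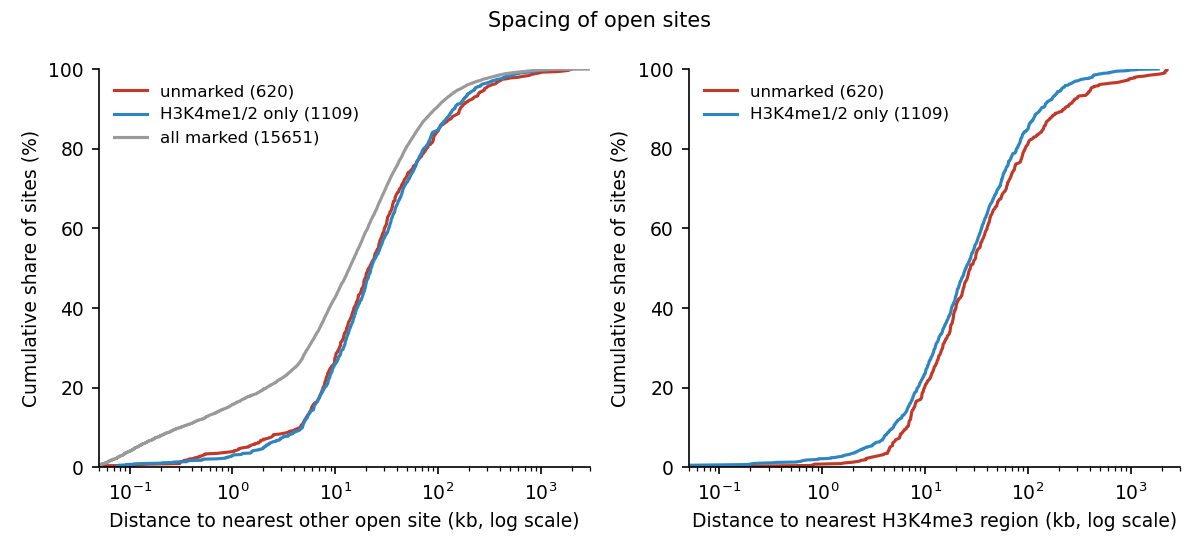
Cumulative share of sites (vertical, percent) by distance in kb (horizontal, log scale) to the nearest other open site (left) and to the nearest consensus H3K4me3 region (right), for unmarked sites (red), sites with H3K4me1 or H3K4me2 only (blue) and, on the left, all marked sites (grey). On the left the red curve runs with the blue and to the right of the grey, with medians of 21.3, 22.4 and 13.7 kb.

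The neighbours of unmarked sites were more often unmarked than those of other sites. The nearest open site was itself unmarked for 100 of the 620 (16.1%, 13.3 to 19.3), against 4.78% (3.60 to 6.20) of sites with H3K4me1 or H3K4me2 only and 2.80% (2.55 to 3.07) of all marked sites. With equal numbers of ATAC peaks per library the shares were 9.71% of unmarked and 1.89% of marked sites. Each other class also lay next to its own kind more often than its share of open sites. Sites with H3K4me1 or H3K4me2 only, 6.82% of open sites, had such a neighbour in 12.6% (10.7 to 14.7) of cases. For sites with H3K27ac but no H3K4me3, 13.7% of open sites, it was 33.1%. The nearest open site carried both H3K4me3 and H3K27ac for 48.1% (44.1 to 52.1) of unmarked sites and 65.4% of marked sites. For sites with H3K4me1 or H3K4me2 only it was 52.0% (49.0 to 55.0), whose interval overlaps that of unmarked sites. For sites that carry both marks themselves it was 72.8%. Only 20 unmarked sites (3.23%, 1.98 to 4.94) lay within 50 kb of 1 of the 500 widest H3K27ac regions, near the 3.97% (2.90 to 5.29) of sites with H3K4me1 or H3K4me2 only. For open sites with H3K27ac but no H3K4me3 that share was 22.4%, but those sites can lie inside such a region.

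Chaining members at gaps of at most 100 kb gave 56 chains of 2 or more, holding 143 members, while 477 stood alone. The fullest chain, chr9:3015209-3038292, held 9 members in 23.1 kb, with fold enrichments of 4.39 to 11.2 in replicate 1 and 3.72 to 10.6 in replicate 2, and 2 marked open sites between them. The second, chr11:3000382-3085558, held 8 members in 85.2 kb at 1.94 to 5.14 in replicate 1 and 1.89 to 4.71 in replicate 2, which include the weakest of all members. The third, chrY:2779648-2892041, held 7 members in 112 kb and no marked site, with folds of 2.82 to 6.18 in replicate 1 and 2.94 to 5.47 in replicate 2. In these 3 chains 3 of 24 members met a peak of a mark list. Without the Y chromosome and sites below 3.5 Mb, an alternative chosen after the chains were seen, the nearest open site was unmarked for 12.0% (9.45 to 14.9) of unmarked sites and 2.77% of marked sites.

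The Y chromosome held 8 open sites, and all 8 were unmarked. They include the 5 members farthest from any mark region, which lay from 2158 to 2268 kb away, at chrY:2781323-2782541, chrY:2795437-2795773, chrY:2876243-2877353, chrY:2883267-2883894 and chrY:2891819-2892041. In that order their folds were 3.80, 4.96, 6.18, 3.95 and 4.03 in replicate 1, where the median of all members was 4.96. In replicate 2 they were 2.94, 4.14, 5.47, 3.56 and 2.96, all below the members' median of 5.72. H3K4me2 and H3K4me3 had 4 consensus regions each on that chromosome, H3K27ac 2 and H3K4me1 none. H3K4me1 replicate 1 had 0 peaks there, against 4 in replicate 2 and 10 in replicate 3. The rule therefore allowed no H3K4me1 consensus region on the Y. On the other chromosomes the unmarked share of open sites ran from 2.04% (1.09 to 3.46) on chromosome 15 to 5.20% (3.88 to 6.80) on chromosome 1. On the X chromosome it was 2.31% (1.11 to 4.21). Of the unmarked sites 1.61% (0.776 to 2.95) were on the X, against 2.70% (2.45 to 2.97) of marked sites, and these intervals overlap. Sites with H3K4me1 or H3K4me2 only had nearly the same share as unmarked sites, 1.62% (0.965 to 2.55). Without ATAC replicate 1 the share was 1.49% (1.12 to 1.94) of unmarked and 2.45% of marked sites, the only 1 of 21 alternatives in which the interval lay below the marked share.

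**Figure D5:**
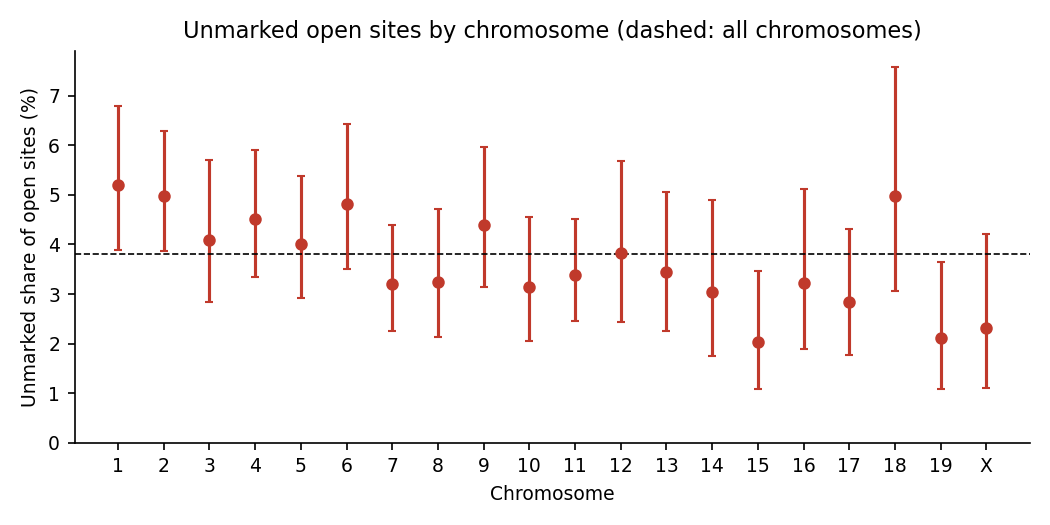
Unmarked share of the open sites of each chromosome (vertical, percent) for chromosomes 1 to 19 and X (horizontal), with 95% Clopper-Pearson intervals for counting error. The dashed line is the share over all chromosomes, 3.81%. Chromosome 1 is highest at 5.20% and chromosome 15 lowest at 2.04%. The Y chromosome, where 8 of 8 were unmarked, is not drawn.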

How the data were processed

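Peak lists of 11 of the 12 samples were used. Each library had its own list, with no pooled list used. Per the submitters' processing notes the tools were MACS2, SAMtools, Bowtie (1.0.1) and Trimmomatic (0.32), and the build was mm9. Peak-calling settings, the control and any shift of ATAC cut sites are not stated in the sources used here. The deposited values of a peak are a fold enrichment ratio, −log10 p and −log10 q values and a score that is the −log10 q times 10 without its decimals. The ATAC lists also give a summit, and their peak names point to removal of mitochondrial reads.

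The 7 mitochondrial peaks were left out, which leaves chromosomes 1 to 19, X and Y. Peaks that overlapped or touched were merged within a group. A site takes the value of its strongest peak by −log10 p in each ATAC library. No list of repeats or artefact-prone sequence was applied, and the gene table at hand is on GRCm38, so no genes and no sequences are given. Positions are counted from 1. Sites named are the 10 strongest, 5 widest and 5 farthest from a mark, the 3 fullest chains and the 3 sites on either side of the rule. The members, lists and measures were chosen with earlier results of these data known. The overlap, distance and class steps were tested on simulated data. Python 3.11.15, numpy 2.4.6, pandas 2.3.3 and scipy 1.17.1 were used.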

Additional observations from a re-analysis of the deposited data

How the results depend on the processing

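Across 21 alternatives no comparison reversed its direction, and 132 of 167 recomputed values stayed within the spread or interval of the value reported. The unmarked share of open sites, 3.81%, moved most. It was 5.70% with −log10 q of at least 5 in all lists, 3.11% with that limit on the ATAC lists alone, 2.33% with the same number of ATAC peaks per library, 2.87% when any peak of any mark library marked a site, and 4.14% when the summit had to be covered. Leaving out 1 library at a time gave 3.44% to 12.5%. It was 12.5% of the 28980 sites without ATAC replicate 1 and 5.86% of the 18441 without replicate 2, where a site needs a peak in 1 library only, and 3.44% without H3K4me2 replicate 2. Leaving out all mark libraries with a shared title code, added after the first results were seen, gave 3.76% and 3.46%, and a share of members with a mark peak of 16.7% and 16.2%, for the codes 3-18 and 3-25 in that order.

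The fold difference of −2.20 was −1.84 with equal numbers of ATAC peaks and ran from −2.20 to −1.26 with 1 library left out, the last without ATAC replicate 1. The width ratio of 0.476 was 0.493 with the limit on all lists, 0.467 with it on the ATAC lists and 0.484 with equal numbers, and ran from 0.475 to 0.586 with 1 library left out. The ratio of distances to the nearest open site, 1.55, was 1.20 with equal numbers and ran from 1.46 to 2.77 with 1 library left out, with 2.45 without ATAC replicate 1 and 2.77 without replicate 2. The ratio for H3K4me3 regions, 1.11, ran from 1.06 to 1.39 with 1 library left out and from 1.04 to 1.39 over all alternatives, with the interval above 1 in 11 of 21. The share of members with a peak of a mark library, 24.7%, was 29.9% when at least 50% of the site had to be covered and 30.7% when the summit had to be, and ran from 16.3% to 24.7% with 1 library left out. Among these it was lowest without H3K4me2 replicate 2 (16.3%), and 17.1% without H3K4me2 replicate 1 and 18.2% without H3K4me1 replicate 1. Each of these settings has fewer lists and also classes the sites anew, with 560, 609 and 633 unmarked sites in that order. The X share, 1.61%, ran from 1.49% to 1.85% with 1 library left out and from 1.18% to 2.34% over all alternatives. The share of unmarked sites with an unmarked nearest neighbour, 16.1%, was 12.9% with the limit on the ATAC lists, 9.71% with equal numbers and 12.0% without the Y chromosome and sites below 3.5 Mb, and ran from 15.1% to 23.2% with 1 library left out, the last without ATAC replicate 1. Leaving out the Y chromosome and sites below 3.5 Mb, a choice made after seeing the data, gave an unmarked share of 3.62%. No paired analysis was possible because no result was given a test, which was a choice of design. Differences in fold and width were already taken within each ATAC library. Depth is unknown, so a mark missed in a shallow library cannot be told from a mark that is absent.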

Other observations

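Unmarked sites gathered at the starts of some chromosomes, a measure chosen after the chains of members were seen. Of the 620, 27 (4.35%, 95% interval 2.89 to 6.27) started below 3.5 Mb on a chromosome other than Y, against 0.812% (0.372 to 1.53) of sites with H3K4me1 or H3K4me2 only and 0.441% (0.343 to 0.558) of all marked sites. They lay on chromosomes 9 (9 sites), 11 (8), 4, 6 and 18 (3 each) and 13 (1). Their median ATAC fold was 4.71 in replicate 1 and 4.62 in replicate 2, against 4.96 and 5.76 for the other 593 members, and 2 of the 27 met a peak of a mark list. The strongest were chr6:3151397-3151653 and chr13:3372229-3372909, both among the 10 strongest members.

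A fold above 10 in both libraries was found at 14 of the 620 members. The share of all open sites above that fold in both is not given here. In the top decile by fold, 0.676% of sites were unmarked in replicate 1 and 0.983% in replicate 2, against 3.81% of all open sites. The 5 unmarked sites among the 100 strongest open sites were 257 to 561 bp wide, while the 95 marked sites there had a median width of 719 bp. The 7 marked sites among the 10 strongest were also narrow, with a median of 386 bp. Away from the Y chromosome the most isolated member, chosen after its values were seen, was chr1:26743815-26744625. It had fold enrichments of 5.11 in replicate 1 and 4.49 in replicate 2 and lay 1986 kb from the nearest mark region.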
